A study of Homo sapiens with 3 samples.

Results

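Promoter capture Hi-C (PCHi-C) of human cardiomyocytes listed 243 pairs of fragments that lie on different autosomes and were called in every one of 3 replicates, once the promoter fragments of HYDIN, FANK1 and 1q21 had been left out. They were chosen from the deposited calls by 3 criteria: the fragments of a pair lie on different autosomes, the pair is listed in all 3 replicates, and the promoter fragment does not start at 70882756 to 70905383 on chromosome 16, at 127584140 on chromosome 10 or at 146642039 to 147237217 on chromosome 1 (GRCh37). The union of the 3 replicates held 200809 pairs, of which 7233 joined different autosomes. Of these, 657 were listed in all 3 replicates, and 414 of the 657 belonged to the 8 left-out promoter fragments that start at those positions. The remaining 243 pairs joined 129 promoter fragments with 186 promoter-interacting regions (PIRs), 313 different fragments in all, and both columns held fragments of all 22 autosomes. Since the scores of the 3 replicates chose these pairs, the scores are given as a description and without a test.

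The samples were 3 biological replicates of cardiomyocytes (hESC-CMs) made from WA09 (H9), an established human embryonic stem cell line, with a commercial differentiation kit and enrichment in medium that held lactate in place of glucose. They are 1 condition from 1 cell line, without treatment or genotype groups, so nothing here compares conditions. The labels state a purity check by flow cytometry and qPCR of MYH7 and TNNT2, and the files hold contacts only, so the expression of marker genes was not analysed here. Each file gives a promoter fragment, a PIR and a score.

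PCHi-C crosslinks chromatin, cuts the DNA, ligates ends that lie near each other and enriches the ligated products for promoter-bearing fragments with RNA baits. CHiCAGO then scores each pair of fragments by how far its read count exceeds a background of random collisions and technical noise, and for fragments on different chromosomes the distance term of that background drops out. Pairs are listed from a score of 5. All 313 fragments of the 243 pairs were bounded by HindIII sites of GRCh37, and the PIRs had a median length of 2056 bp (157 to 20310 bp).

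Several kinds of sequence occur on more than 1 chromosome. A retrocopy is a messenger RNA that was reverse-transcribed and inserted elsewhere in the genome, so it holds the exons of its parent joined together and lacks the introns. A segmental duplication is a block of genomic DNA, introns included, that was copied to another place, and such blocks are common next to centromeres and chromosome ends. A short read from 1 copy can be placed on another, and whether this happened to any pair was not tested, since reads were not used here. A match was called near-identical when a fragment of a pair aligned to the sequence within 1 Mb of its partner over 500 bp or longer with an identity from 95% upwards, and a retrocopy was called when spliced transcript aligned there across an exon junction without the intron, over 200 bp or longer with an identity from 90% upwards.

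The sequences of 4 such loci are shown as examples of a retrocopy or a segmental duplication. The first is the pair of PAIP1, which encodes a partner of poly(A)-binding protein in translation initiation, and its processed pseudogene PAIP1P2. The 2 lines give the end of exon 4 of PAIP1 with the start of the following intron in capitals (GRCh37 chr5:43543066-43543145, minus strand), and the copy (chr17:18554110-18554189, plus strand), which runs from exon 4 straight into exon 5.
PAIP1 gene: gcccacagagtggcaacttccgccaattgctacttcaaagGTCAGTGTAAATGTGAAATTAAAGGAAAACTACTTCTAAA
PAIP1P2 copy: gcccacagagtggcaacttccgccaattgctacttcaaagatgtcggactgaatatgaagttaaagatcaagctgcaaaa
The copy differed from the spliced parent at 0 of these 80 bases.

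For RNF138, which encodes an E3 ubiquitin ligase, the first line gives the end of exon 5 with the start of the following intron in capitals (chr18:29703498-29703577, plus strand), and the second gives the copy annotated as RNF138P1 in the gene PLPP1 (chr5:54826233-54826312, minus strand), with a base that differs from the spliced parent in capitals. The contacted RNF138 fragment starts at 29703541, within the printed intron.
RNF138 gene: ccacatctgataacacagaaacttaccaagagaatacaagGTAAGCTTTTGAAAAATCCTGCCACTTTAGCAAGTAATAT
RNF138P1 copy: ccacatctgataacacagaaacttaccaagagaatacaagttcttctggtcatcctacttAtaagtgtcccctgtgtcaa
This copy differed from the spliced parent at 1 of 80 bases.

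Segmental duplicates carry no such junction. In the gene MAD1L1, which encodes a component of the mitotic spindle checkpoint, a stretch without an annotated exon (chr7:1916934-1917083, plus strand) recurs on chromosome 22, 105656 bp or more from BCR (chr22:23771197-23771346, minus strand) with 0 differences over 150 bases.
MAD1L1, chromosome 7: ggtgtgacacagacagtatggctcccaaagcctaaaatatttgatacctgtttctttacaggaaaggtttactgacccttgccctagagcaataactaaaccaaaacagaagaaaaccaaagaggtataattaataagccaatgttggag
Near BCR, chromosome 22: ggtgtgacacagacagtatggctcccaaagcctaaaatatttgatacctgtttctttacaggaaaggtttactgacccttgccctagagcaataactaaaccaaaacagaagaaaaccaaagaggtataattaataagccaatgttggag

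Near the olfactory receptor genes OR4K on chromosome 14, the pseudogene NF1P7 (chr14:19492852-19493001, plus strand) shares sequence with NF1P6 on chromosome 22 (chr22:16348341-16348490, minus strand). A base in capitals differs, 1 of 150.
NF1P7, chromosome 14: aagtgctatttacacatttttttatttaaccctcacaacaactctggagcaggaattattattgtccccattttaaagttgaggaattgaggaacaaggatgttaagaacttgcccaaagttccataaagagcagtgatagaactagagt
NF1P6, chromosome 22: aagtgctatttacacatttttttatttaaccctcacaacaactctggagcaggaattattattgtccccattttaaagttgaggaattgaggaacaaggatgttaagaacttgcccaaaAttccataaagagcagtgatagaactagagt

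By contrast, the C2CD3 fragment, the PIR with the most promoter partners, had no second copy of 200 bp or longer with an identity from 90% upwards anywhere in GRCh37. Its last 120 bases (chr11:73872568-73872687, plus strand) hold part of a C2CD3 coding exon and end at the HindIII site, whose first base is in capitals.
C2CD3 fragment: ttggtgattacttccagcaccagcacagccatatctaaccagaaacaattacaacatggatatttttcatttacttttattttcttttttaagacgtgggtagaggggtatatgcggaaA

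Outside the left-out fragments, contacts between autosomes were listed in all 3 replicates less often than contacts within a chromosome. With those fragments included, the count was 657 of 7233 pairs between autosomes. Of 5943 pairs on different autosomes in the union without the left-out fragments, 243 were in all 3 replicates, or 4.09%. The same share was 32.1% for the left-out fragments, 24.5% for pairs on 1 chromosome, 7.63% for pairs on 1 chromosome over 2 Mb apart, and 23.9% over all pairs. Of pairs listed in both of 2 replicates, 62.1% ± 2.66 (SD, n = 3 choices of the third replicate) were also listed in the third, with 59.1%, 64.3% and 62.8% when replicates 1, 2 and 3 were the third. For pairs on 1 chromosome this was 80.1% ± 0.0971, for those over 2 Mb apart 69% ± 1.97, and for the left-out fragments 81.3% ± 2.73. The 3 values of the first class lay below all values of the other 3 classes. The 3 values of a class share their replicates and are not independent, so no test was made.

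The share listed in all 3 replicates rose with the score, again without the left-out fragments in the class between autosomes. Of pairs on different autosomes that scored from 5 to under 6 in 1 replicate, 1.36%, 1.23% and 1.38% were in all 3 replicates (replicates 1, 2 and 3), against 18.4%, 20.2% and 20.7% of pairs on 1 chromosome. From a score of 20 the shares were 66.3%, 54.1% and 56.9%, against 96.1%, 95.7% and 95%. In every score class the 3 values for different autosomes lay below the 3 for the same chromosome.

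**Figure D1:**
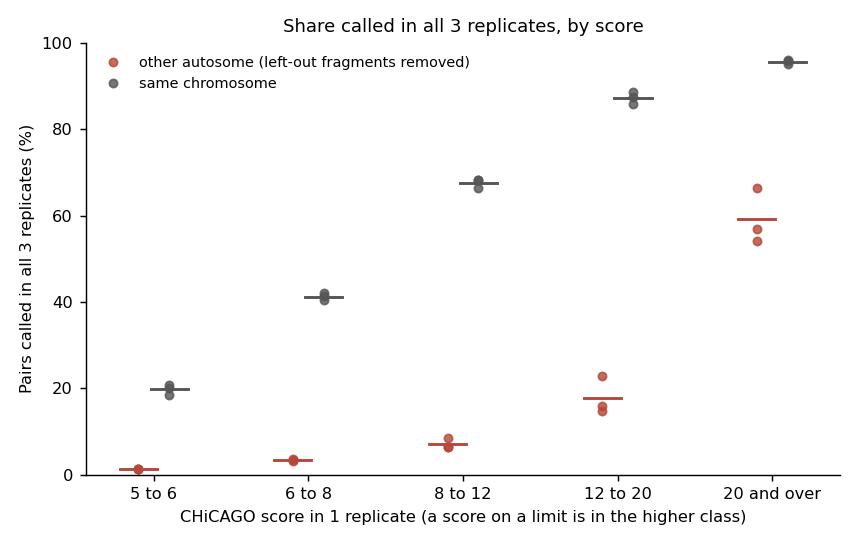
Share of called pairs (y axis, percent) that were listed in all 3 replicates, by the score in 1 replicate (x axis, score classes), with 1 point per replicate and a line at their mean. From 20 upwards, 54.1% to 66.3% of pairs between autosomes, without the left-out fragments, recurred, against 95% to 96.1% on the same chromosome.

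The 243 pairs scored high where they were listed. Their mean scores had a median of 25.1 (5.32 to 728), against 8.27 for the pairs on 1 chromosome in all 3 replicates, and 153 of them (63%) had a mean over 20, against 5.02%. Median scores were 23.8, 24.2 and 24.9 in replicates 1, 2 and 3. Replicate spread was also wider, with a median coefficient of variation of 39.7% against 14.7%. In 162 pairs the lowest of the 3 scores was 10 or more, in 84 it was 20 or more and in 13 it was 100 or more. On the merged replicates 223 of the 243 were listed as well.

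At the limit of 5, the members just inside had a lowest score of 5.03 (3 pairs), 5.04 and 5.12. The last of these joined PTCSC3 on chromosome 14 with a fragment of chromosome 15 and scored 17.07, 5.12 and 10.75. Just outside stood pairs listed in 2 replicates only, for which the third score is known only to lie below the limit. The highest of them joined the RNU1-51P fragment of chromosome 4 with chromosome 21 at 111.45 and 31.83 in replicates 2 and 3.

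When pairs were joined into 1 place if both their ends lay within 1 Mb, the 243 pairs formed 103 places. A single pair made up 74 of the places, while the 12 largest held 124 pairs and the 6 largest 90. In 11 places 1 promoter fragment met several PIRs (70 pairs), in 5 places several promoter fragments met 1 PIR (22 pairs), and in 13 places there were several of both (77 pairs). Most promoter fragments (100 of 129) had 1 such pair.

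**Figure D2:**
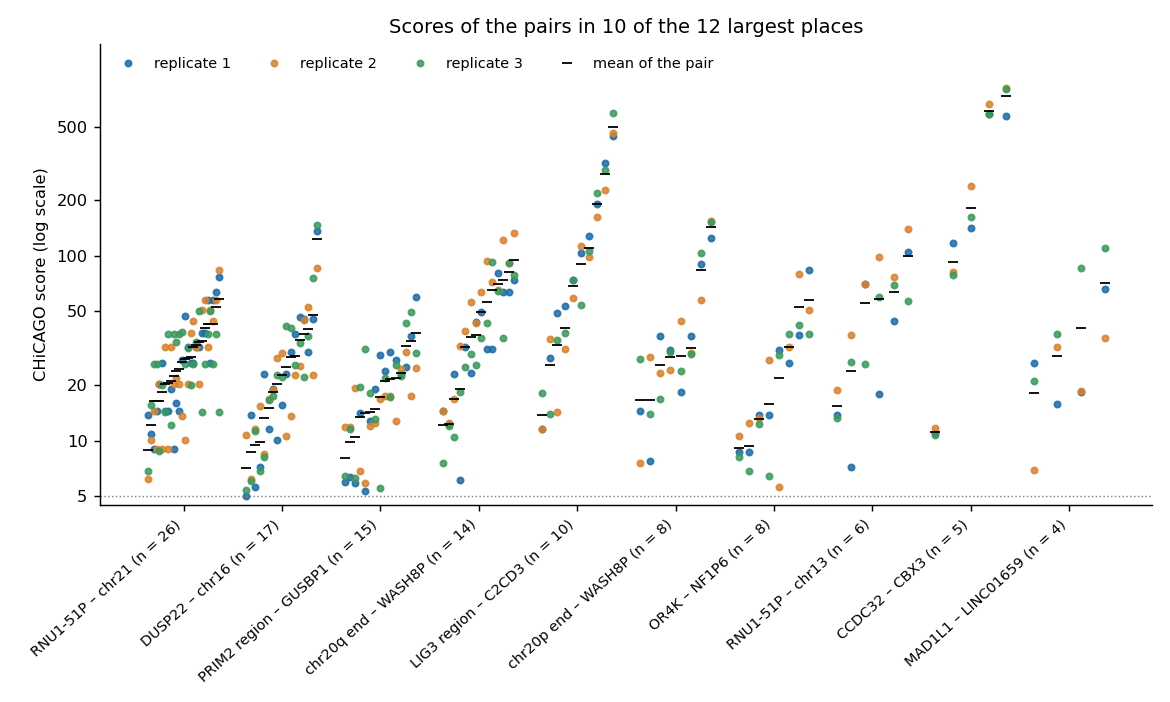
CHiCAGO scores (y axis, log scale) of each pair in 10 of the 12 largest places (x axis, with the number of pairs), 1 point per replicate, with a black dash at the mean of the pair and a dotted line at the listing limit of 5. The pairs of CCDC32 and RPUSD2 with CBX3 reach 813.21, while those of DUSP22 with chromosome 16 spread from 5.03 to 146.8.

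The strongest contacts joined CCDC32 and RPUSD2 on chromosome 15 with CBX3 on chromosome 7. CBX3 encodes a heterochromatin protein of the HP1 family, CCDC32 encodes a coiled-coil protein and RPUSD2 a pseudouridine synthase-like protein. The CCDC32 promoter fragment (chr15:40850415-40857671) scored 570.45, 813.21 and 799.4 in replicates 1, 2 and 3 with the CBX3 fragment chr7:26246476-26252025 (728 ± 136, SD, n = 3), the highest mean of the 243. With the neighbouring fragment chr7:26252026-26262621 it scored 588.31, 658.96 and 582.95 (610 ± 42.4). The next promoter fragment, that of RPUSD2 at 7.96 kb, scored 181 ± 50.9 and 92.6 ± 21.3 with the same fragments, and its scores did not overlap those of CCDC32. A fragment with the start of RNU6-516P at -31.9 kb scored 10.93, 11.63 and 10.79 with the second CBX3 fragment.

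Around this peak the scores dropped steeply. The first CBX3 fragment was listed with 15 promoter fragments of this part of chromosome 15 in at least 1 replicate, 2 of them in all 3, 6 in 2 and 7 in 1, and outside CCDC32 and RPUSD2 no mean exceeded 28.8. The 2 fragments carry 3 and 1 of the 6 exons of the canonical CBX3 transcript. Neither near-identical sequence nor a retrocopy was found within 1 Mb in GRCh37. The first CBX3 fragment had 0 copies elsewhere in the genome at 95% identity over 500 bp, and the second had 1, which was not on chromosome 15. At 90% identity over 200 bp the first had 1 copy elsewhere and the second had 3.

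A single fragment of C2CD3 on chromosome 11 (chr11:73870617-73872687, 2071 bp) was contacted by 10 promoter fragments of chromosome 17, more than any other PIR. C2CD3 encodes a centriole protein, and the fragment holds 1 of the 33 exons of its canonical transcript. The chromosome 17 fragments spread over 662 kb and carry annotated starts of TMEM132E, CCT6B, ZNF830, LIG3, RFFL, NLE1, UNC45B and SLFN5, and of the small RNA genes snoU13 and RNU6-840P. LIG3 acts in DNA repair, CCT6B is a chaperonin subunit, and UNC45B is a myosin chaperone of muscle. The fragment with the starts of CCT6B and LIG3 scored 442.8, 461.69 and 592.32 (499 ± 81.4). The fragment 19.6 kb before it, with CCT6B and ZNF830, scored 317.84, 226.44 and 289.58 (278 ± 46.8). These 2 stood above all the other promoter fragments.

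Farther along, the scores did not fall evenly with distance. The fragment with the start of RNU6-840P at 112 kb, which overlaps RAD51D without holding its start, scored 190.8, 161.37 and 218.89 (190 ± 28.8), while the adjoining fragment with a start of RFFL at 107 kb scored 49.22, 14.23 and 34.85 (32.8 ± 17.6). NLE1 at 159 kb reached 110 ± 15.2 and UNC45B at 164 kb 25.8 ± 10.9. TMEM132E, at -400 kb on the other side, scored 103.44, 112.89 and 53.85. SLFN5, at 262 kb, scored 11.59, 11.55 and 18.1, the lowest of the 10. The span held 11 promoter fragments with any listed contact, and the 11th scored 16.75 and 9.41 in replicates 1 and 3 and was not listed in replicate 2. Up to 1 Mb beyond the span, 6 more were listed in 1 or 2 replicates.

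The fragment of CCDC90B-AS1, an antisense transcript on chromosome 11 (chr11:83025166-83029490), was also contacted by neighbouring promoter fragments of chromosome 17. The 5 described here carry MIR2117HG, U6 snRNA pseudogenes and RPL29P31. The fragment with RNU6-1137P scored 74.74, 14.74 and 87.95 (59.1 ± 39), and that with RNU6-971P and RPL29P31 scored 9.34, 63.72 and 50.91 (41.3 ± 28.4). The other 3 had means from 29 to 38.9, and the scores of all 5 overlapped. Here the PIR was repetitive: it had 37 further copies of 500 bp or longer on 19 chromosomes with an identity from 95% upwards, and the only one on chromosome 17 lay 3948.4 kb from the nearest contacting promoter fragment.

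**Figure D3:**
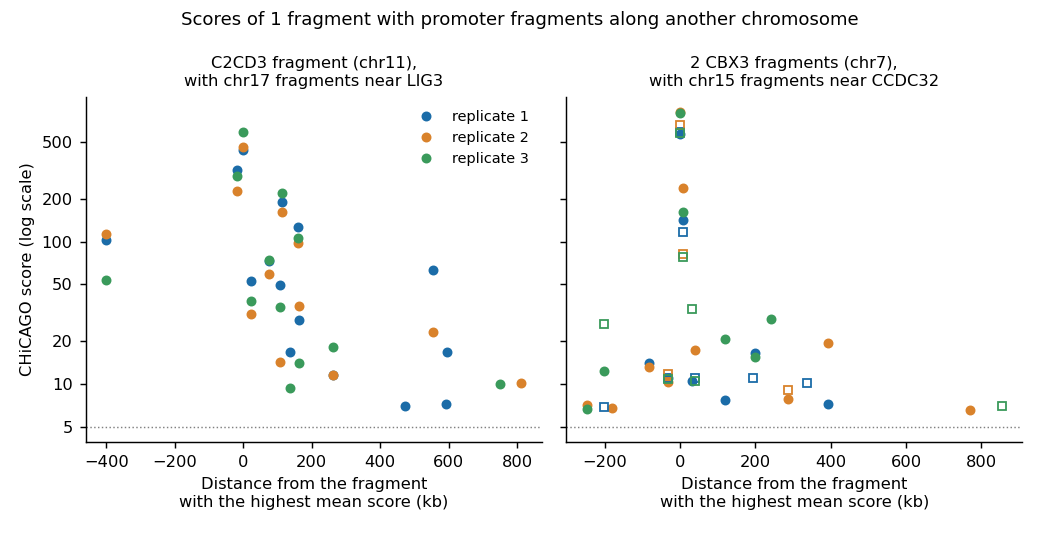
Score (y axis, log scale) of the C2CD3 and CBX3 fragments with promoter fragments along chromosome 17 or 15 (x axis, distance in kb from the promoter fragment with the highest mean). Points are replicates, open squares are the second CBX3 fragment, the dotted line is the listing limit, pairs called in 1 or 2 replicates are included, and the peaks reach means of 499 and 728.

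Both ends of chromosome 20 contacted the end of the short arm of chromosome 12, at the pseudogene WASH8P and between it and IQSEC3. On the long arm of chromosome 20, 5 promoter fragments and 5 PIRs made 14 pairs with a mean score of 47 ± 12.2 (replicate means 39.2, 61.1 and 40.7). PCMTD2, 137 kb from the chromosome end, contacted all 5 PIRs with means from 37.5 to 94.7. MYT1, a zinc finger factor of neural cells at 237 kb, contacted 4 with means from 36.4 to 82.2. OPRL1, the nociceptin receptor gene, at 308 kb, contacted 3 with means from 12.3 to 32.1. TCEA2 at 330 kb and DNAJC5 at 498 kb each had 1 pair, with means of 12.2 and 16.7. The means of PCMTD2 and MYT1 lay above those of the 3 promoters farther from the end, while their replicate scores overlapped those of OPRL1.

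On the short arm of chromosome 20, 5 promoter fragments and 2 WASH8P fragments made 8 pairs with replicate means of 45.1, 46.1 and 49.7. The beta-defensin gene DEFB129, 206 kb from the end, stood out with 125.54, 154.12 and 152.84 (144 ± 16.1). DEFB128 at 162 kb, nearer to the end, scored 25.6 ± 10.2 with the same PIR, and DEFB132 at 234 kb scored 16.6 ± 10.5. SOX12, which encodes a transcription factor, at 306 kb scored 28.7 ± 13.7. On this arm the promoter nearest to the end was thus not the one with the highest score.

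These were not the only contacts between chromosome ends. In 31 of the 243 pairs both fragments lay within 500 kb of a chromosome end. These include the 14 and 8 pairs of chromosome 20, 3 of chromosome 13 with chromosome 8 and 3 of chromosome 6 with chromosome 12. How often both fragments lay so near an end was not computed for pairs in 2 or 1 replicates. CHAMP1 on chromosome 13 scored 134.67, 134.33 and 153 (141 ± 10.7) with a fragment 162 kb from an end of chromosome 8, and UPF3A, a factor of nonsense-mediated decay, 23.3 ± 15 with the same fragment. IRF4 on chromosome 6 scored 28.5 ± 18.2 with the fragment 167 kb from the end of chromosome 12. Of the 5 chromosome 12 PIRs, those up to 153 kb from the end had 5, 5, 7 and 11 copies elsewhere at the near-identical limits, all but 1 or 2 of each within 500 kb of a chromosome end and none on chromosome 20. The PIR at 167 kb had a single copy of 1616 bp on chromosome 20, 80.6 kb from the nearest contacting promoter fragment. This copy was not counted as near-identical because fewer than 500 of its bases had 20 or fewer alignments in the genome.

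**Figure D4:**
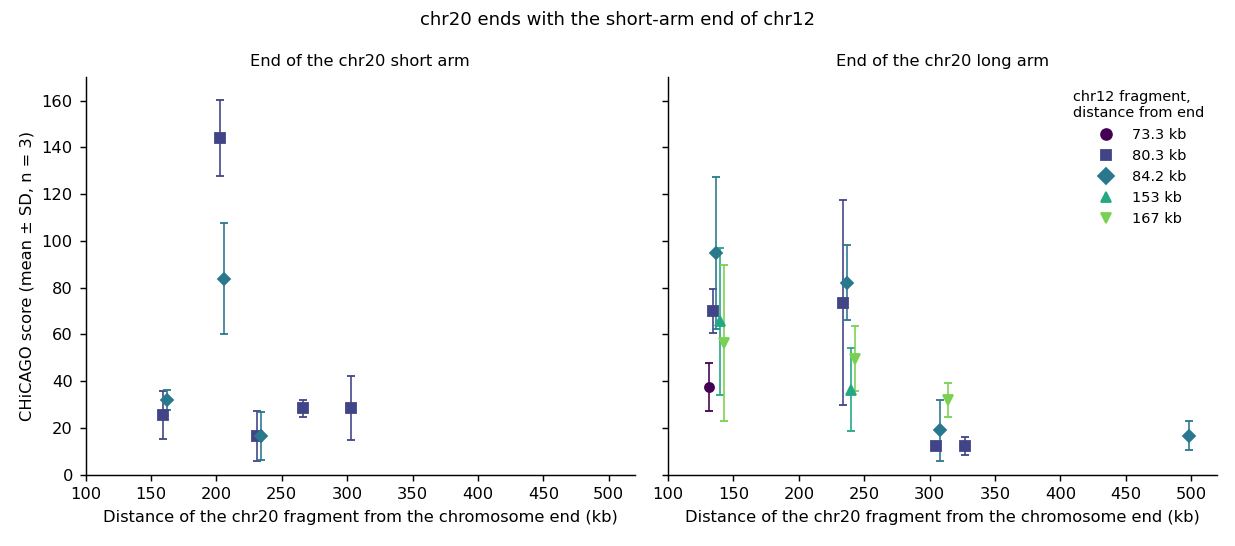
Mean score ± SD over 3 replicates (y axis) of chromosome 20 promoter fragments with fragments at the end of chromosome 12, by distance of the chromosome 20 fragment from its end (x axis, kb, points shifted slightly sideways). Symbols give the distance of the chromosome 12 fragment from its own end. On the short arm DEFB129 at 206 kb reaches 144, and on the long arm the 2 fragments at 137 and 237 kb lie highest.

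A single promoter fragment of chromosome 4, which carries the U1 snRNA pseudogene RNU1-51P (chr4:190627730-190631259), made 38 of the 243 pairs, more than any other. They reached 6 chromosomes. Chromosome 21 held 26 PIRs between 10427790 and 11178902, with a mean score of 28.7 ± 1.18 (replicate means 29.4, 29.3 and 27.3) and scores from 6.22 to 83.95. Chromosome 13 held 6 PIRs with a mean of 53 ± 18, and the highest of them scored 104.53, 139.73 and 56.85. Chromosome 17 held 3, and chromosomes 7, 16 and 20 held 1 each. In the union this fragment had 198 pairs with other autosomes and 14 on chromosome 4, of which 1 was in all 3 replicates.

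Many of its pairs had exactly the same score. The 38 pairs took 24, 26 and 20 different values in replicates 1, 2 and 3. In replicate 3, for example, 37.94 recurred at several fragments of chromosome 21 and on chromosome 16. Only 1 of the 38 pairs had a match, of 4996 bp at 94.5% identity between its chromosome 20 fragment and chromosome 4 at 224 kb from RNU1-51P. In the reverse direction, the LINC00273 fragment of chromosome 16 contacted the RNU1-51P fragment with 49.19, 77.96 and 48.68 (58.6 ± 16.8).

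Another place had the same form, with 1 promoter fragment and many PIRs. DUSP22, a phosphatase gene near the end of chromosome 6, contacted 17 fragments of chromosome 16 between 32550858 and 33986146, at 28.8 ± 3.5, led by a fragment near TP53TG3B with 136.11, 85.55 and 146.8 (123 ± 32.7). The other 16 had means from 7.07 to 48. All 208 listed contacts of this DUSP22 fragment in the union were with other autosomes. PRIM2, which encodes a subunit of DNA primase, contacted the pseudogene GUSBP1 on chromosome 5. So did a fragment with starts of BEND6 and DST, and a fragment with RNU6-626P that overlaps DST. Together they made 15 pairs at 19.7 ± 3.15. The 14 GUSBP1 PIRs adjoined each other over 39.9 kb from 21530102 to 21570048, and none had a copy elsewhere at 95% identity over 500 bp. The PRIM2 fragment had 27 further pairs within chromosome 6 in all 3 replicates, unlike DUSP22 with 0.

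Just outside the left-out positions lay the promoter fragment of GJA5 on chromosome 1, a connexin gene expressed in atrial muscle. It contacted a fragment of HYDIN on chromosome 16, which encodes a protein of motile cilia, with 5.83, 5.9 and 11.23 (7.65 ± 3.1), close to the limit of 5 in 2 replicates. This pair was not listed on the merged replicates. The fragment of RNU2-42P on chromosome 10, which overlaps DHX32 and ends at 127584139, next to the left-out one, had 2 pairs with chromosome 21 at 11.4 ± 6 and 15.6 ± 12.8. On chromosome 16 the nearest promoter fragment with a pair was that of HP, which also overlaps TXNL4B, with 1 pair at 21.6 ± 15.8.

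Retrocopies were found at 3 of the 103 places, 1 pair at each, or 1.23% of the 243 pairs (95% Wilson interval 0.421 to 3.57). Among pairs on different autosomes listed in 1 or 2 replicates the share was 0.158%, made up of 0.895% (0.349 to 2.28) in 2 replicates and 0.0952% in 1 replicate. The share in 2 replicates lay within the interval of the 243 pairs. The interval covers counting error only, and pairs that share a fragment are not independent. Annotated processed pseudogenes on either fragment went the other way. They were present in 4.53% of the 243 pairs (2.55 to 7.92), 8.5% in 2 replicates and 6.8% in 1 replicate. PAIP1 contacted PAIP1P2 on chromosome 17 with 44.51, 27.07 and 34.85 (35.5 ± 8.74). The copy (chr17:18553508-18556015) aligned to 2460 bp of spliced PAIP1 at 99% identity across 10 junctions and covers the contacted fragment. NNT, the mitochondrial transhydrogenase gene next to PAIP1, contacted the same fragment with 26.21, 42.23 and 67.23 (45.2 ± 20.7), and these scores overlapped those of PAIP1. Its promoter fragment does not belong to the parent gene, so that pair counts as near-identical only.

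In the other 2 cases the copy lay beside the promoter fragment and the parent gene was the PIR. PLPP1, a lipid phosphatase gene of chromosome 5, contacted RNF138 on chromosome 18 with 69.09, 73.05 and 103.43 (81.9 ± 18.8). Its copy of RNF138 (chr5:54824496-54826746) held 2257 bp at 96.4% identity across 6 junctions, 1.11 kb from the promoter fragment. EIF2AK2, which encodes the antiviral kinase PKR, contacted ARL14EP on chromosome 11 with 51.46, 68.17 and 75.85 (65.2 ± 12.5). The ARL14EP copy (chr2:37375578-37377894) lies in an exon of EIF2AK2 annotated as UTR and held 2307 bp at 91.9% identity across 3 junctions, 5.4 kb from the promoter fragment. All 9 scores of these 3 pairs exceeded 25.

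Near-identical sequence was found for 13 of the 243 pairs, or 5.35% (3.15 to 8.94), at 5 places, against 1.53% of pairs on different autosomes in 1 or 2 replicates. Split by replicates, this was 4.25% (2.74 to 6.54) in 2 replicates, within the interval of the 243 pairs, and 1.29% in 1 replicate. The 13 overlap the retrocopies: they include the pairs of PAIP1, NNT and PLPP1 described above, whose match lies in a retrocopy. Near-identical sequence, a retrocopy or both were found for 14 pairs (5.76%). On chromosome 7, a place held fragments that overlap ELFN1 or MAD1L1, one of them with starts of MAD1L1 and MRM2. They contacted 2 fragments near BCR and LINC01659 on chromosome 22 in 4 pairs. The strongest, of the fragment that carries the start of MIR4655 in MAD1L1, scored 66.19, 35.78 and 110.84 (70.9 ± 37.8). The duplicate of 1026 bp at 98.4% identity lies in MAD1L1, 28.5 kb from that fragment, 178 kb from the ELFN1 fragment and 354 kb from the third. Mean scores at these 3 distances were 70.9, 40.8 and 18.1. ELFN1, with 18.22, 18.65 and 85.56, overlapped both others, while the third, with 26.41, 6.93 and 20.93, lay below all 3 scores of the first. The remaining pair joined the MIR4655 fragment with LINC01659 and scored 15.87, 32.16 and 37.94 (28.7 ± 11.4). Its longest match lay nearest, at 26.6 kb, yet its mean was below that of ELFN1. Another copy of this PIR was centred 3.02 kb from the midpoint of the MIR4655 fragment, which is 7011 bp long.

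Fragments of OR4K2, OR4K5, OR4K1 and OR4K17, olfactory receptor genes of chromosome 14, contacted NF1P6 on chromosome 22 in 8 pairs, of which 5 were near-identical with 98.7% to 99% identity over 969 to 2446 bp. Only the longest match of each pair was kept, and for these 5 it lay 501 to 909 kb from the promoter fragment. Both PIRs of these pairs had 2 such copies on chromosome 14. The nearest copy was centred 264 and 263 kb from the midpoint of the nearest contacting promoter fragment. The other 3 pairs had shorter matches of 380 and 404 bp. OR4K2 had the highest scores, with 83.99, 50.99 and 37.94 (57.6 ± 23.7) and with 37.51, 79.71 and 42.06 (53.1 ± 23.2) at 2 NF1P6 fragments. OR4K1 scored 13.73, 13.29 and 12.3, below every one of these 6 scores. A fragment that overlaps IQSEC3 on chromosome 12, with the start of a non-coding gene, contacted WASH2P on chromosome 2 with 15.65, 45.12 and 30.95, and its match of 2437 bp at 98.4% lay 193 kb away, in the WASH8P fragment that PCMTD2 contacted.

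At the looser limit of 90% over 200 bp, 28 pairs at 13 places had a match (11.5%, 8.09 to 16.1). The longest, 9140 bp at 91.8% identity, joined GABBR2 on chromosome 9 (chosen after its values were seen), which encodes a GABA-B receptor subunit, with a fragment near C22orf42 on chromosome 22. This locus was contacted from both sides: GABBR2 scored 72.18, 64.64 and 114.67 (83.8 ± 27) as the promoter fragment, and RFPL2 on chromosome 22 scored 73.48, 52.13 and 75.42 (67 ± 12.9) with GABBR2 as the PIR. The matches lay 0 to 75.4 kb from the partner. WDR12 and CARF on chromosome 2 contacted an IQUB fragment of chromosome 7 at 372.3, 224.02 and 231.96 (276 ± 83.4), the fifth-highest mean of all, with a match of 304 bp at 99% identity that overlaps the promoter fragment itself. IQUB encodes a protein of cilia, and its fragment holds 0 of the 13 exons of the canonical transcript.

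For most contacts no such sequence was found. In 215 pairs at 90 places there was neither a match at 90% over 200 bp nor a retrocopy. Sequence with more than 20 alignments in the genome was set aside in the search for matches. With it counted, near-identical sequence was also found for 3 pairs of the chromosome 20 long arm and 1 of LRIG2. Mean scores of the 215 pairs had a median of 24.7 (5.32 to 728), against 31.4 (6.73 to 276) for the 28 pairs with a match or retrocopy. Of the 18 pairs with a mean over 100, 17 were among the 215. Examples, chosen after their values were seen, are RERE, a transcriptional corepressor gene, with a chromosome 8 fragment at 29426 bp from HGSNAT (201.39, 238.46 and 217.64), ZNF595 with PSMD14-DT (190.8, 250.94 and 189.21) and HDAC5, a histone deacetylase gene, with LINC01790 (121.34, 183.69 and 101.38). Both fragments of the ZNF595 pair carry an annotated processed pseudogene, BNIP3P41 on chromosome 4 and ENSG00000225813 on chromosome 2. No match in GRCh37 says nothing of sequence that this assembly lacks.

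Among the places with 1 pair, those with a mean over 50 that have not been named lay in all 3 replicates above 18. SLAIN1, a microtubule-associated protein gene of chromosome 13, scored 77.46, 88.89 and 102.19 with a fragment of chromosome 5 at 582099 bp from the nearest coding gene, and CDC42EP3 scored 89.15, 81.76 and 145.97 with a fragment of chromosome 7 at 1175677 bp from one. PYHIN1, an interferon-inducible gene of chromosome 1, scored 70.83, 52.85 and 96.36 with ADGRL3. ZNF318 with MCTP1 and FARP1 with ATL2 varied more, at 18.74, 77.88 and 68.12 and at 38.82, 102.7 and 20.92. Highest and lowest replicate thus differed little in SLAIN1 and several-fold in the last 2.

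Neighbouring promoters sometimes shared a PIR here too. GLYAT on chromosome 11, which encodes a glycine acyltransferase, scored 56.32, 49.47 and 72.48 with a fragment of 181 bp in IL22RA2 on chromosome 6, and the fragment with the start of CNTF scored 42.35, 7.18 and 63.28 with it. GPR25 and INAVA on chromosome 1 scored 21.8 ± 4.32 and 29.6 ± 13.1 with 1 fragment of chromosome 3 at 46278 bp from EPHB3. NXPE1 on chromosome 11 had 4 PIRs near MAP2K3 and KCNJ12 on chromosome 17 with means from 11.5 to 22.1, and 1 on chromosome 7 with 45.1 ± 15.9. The ZNF595 fragment reached chromosomes 2, 12, 14 and 21, with means from 6.73 to 210. The defensin genes DEFB116, DEFB118, DEFB121 and DEFB122 of chromosome 20 contacted chromosomes 16 and 2 in 6 pairs with means from 7.72 to 26.4.

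The PIRs of the 243 pairs often had copies somewhere else in the genome, whether or not near the partner. At 95% over 500 bp, 38.7% of pairs (32.8 to 44.9) had a PIR with a copy, against 38% of pairs in 2 replicates, 18.4% of pairs in 1 replicate and 3.58% of same-autosome pairs over 2 Mb in all 3 replicates. Counted once per PIR, these were 59 of 186, or 31.7% (25.5 to 38.7), 39% in 2 replicates and 12.9% in 1 replicate. Both counts lay above those of pairs in 1 replicate by more than the counting intervals. Against pairs in 2 replicates the share was similar per pair and lower per PIR, with intervals that overlapped (34 to 44.3 in 2 replicates).

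Position differed between these classes as well. PIRs lay within 1 Mb of an assembly gap of over 1 Mb in 20.6% of the 243 pairs (16 to 26.1), 21.3% in 2 replicates, 11.2% in 1 replicate and 2.2% of same-autosome pairs. For PIRs within 500 kb of a chromosome end the shares were 12.8% (9.13 to 17.5), 7.61%, 7.14% and 0.104%. The 31 pairs behind 12.8% include the 14, 8 and 3 pairs with the end of chromosome 12, which share 5 PIRs. This share was not counted once per PIR, so whether it exceeds the other classes beyond that end was not tested. The single RNU1-51P fragment decided some of these shares. Without it in any class between autosomes, PIRs near a long gap made up 9.76% of 205 pairs (6.4 to 14.6), 14.9% in 2 replicates and 10.1% in 1 replicate. Those near a chromosome end then made up 15.1% (10.9 to 20.7), 8.33% and 7.29%. PIRs overlapped a protein-coding gene in 21.4% (16.7 to 27), 31.3%, 46.8% and 41.1%. Promoter fragments with a small RNA gene took part in 28.4% of the 243 pairs (23.1 to 34.4) and in 23.5%, 18.5% and 11.8% of the others. Without the RNU1-51P fragment the latter share was 15.1% (10.9 to 20.7), 13.6% in 2 replicates and 16.8% in 1 replicate, so its excess rested on that fragment. The GC content of the PIRs had medians of 39.1%, 39.1%, 40.2% and 38.8%.

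**Figure D5:**
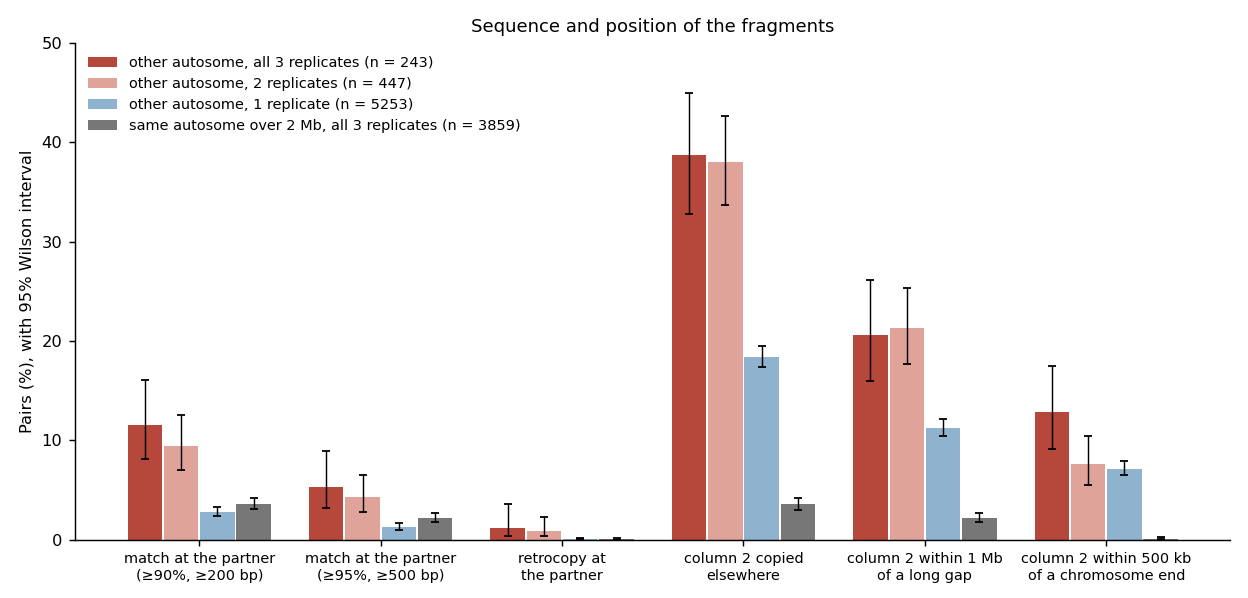
Share of pairs (y axis, percent, with 95% Wilson intervals for counting error) with the sequence or position named on the x axis, for pairs between autosomes in all 3, 2 or 1 replicates and for same-autosome pairs over 2 Mb apart in all 3 replicates. The class in all 3 replicates has 38.7% with a copied PIR against 3.58% of the same-autosome class.

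Some PIRs were listed with promoters of several places. These, too, were chosen after their values were seen. A fragment of chromosome 15 at 60783 bp from TERB2 (chr15:45186976-45188102) was contacted by promoter fragments of RNU6-1060P, CLIC5, FOCAD, AL096864.1 (which overlaps NRG3) and PTCSC3 on 4 chromosomes, with means of 25.6, 16.5, 15.3, 11.2 and 11 and scores from 5.12 to 42.12 that overlapped. It had 76 further copies at 90% over 200 bp and 0 at 95% over 500 bp. A fragment of chromosome 11 at 297701 bp from CNTN5 was contacted from 2 places of chromosome 3 at 8.2 and 7.25. CDC42EP3 on chromosome 2, a Cdc42 effector gene, shared fragments with RNU1-51P on chromosomes 16 and 21, at 32.5 ± 9.52 and 26.3 ± 9.65.

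Few promoter fragments of any listed gene group had such a pair, and the shares of the groups were not tested. Of 18304 autosomal promoter fragments in the calls, 129 (0.705%) had at least 1 of the 243 pairs. Among gene groups, this held for 0 of 35 fragments of cardiomyocyte genes, 0 of 81 of ribosomal protein genes, 2 of 51 of histone genes (3.92%), 4 of 329 of zinc finger genes (1.22%) and 3 of 230 of olfactory receptor genes (1.3%). The histone fragments were those of H2BC21, which contacted HYDIN at 7.49, 6.97 and 6.73, and of H2AC7 with H3C4, which contacted a fragment of chromosome 1 at 6.18, 6.18 and 6.07, both close to the limit of 5. A fragment with HIST2H2AA3, which carries its older symbol in the annotation and is not in that count, contacted HYDIN at 13.05, 6.51 and 13.2 and at 6.68, 32.94 and 13.2. The zinc finger genes were ZNF318, ZNF460, ZNF595 and ZNF830. Fragments with a small RNA gene and no protein-coding start had a pair in 27 of 2529 cases (1.07%).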

How the data were processed

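The authors used HiCUP to map the reads, with GRCh37 named in the submitters' processing notes, and CHiCAGO to call interactions. Each deposited file lists pairs of fragments with a CHiCAGO score, the only unit used here, for each of 3 biological replicates and for the merged replicates. Scores below 5 are not listed, and read counts and depth were not analysed here, so no counting precision can be given for a score.

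Pairs were matched by the exact coordinates and order of both fragments. Fragments and 7801 canonical spliced transcripts of GENCODE 44 lifted to GRCh37 were aligned to GRCh37 with minimap2 2.31-r1302 (preset asm20) under Python 3.11.15, pandas 2.3.3, scipy 1.17.1, pysam 0.24.0 and samtools 1.23.1. Identity is gap-compressed. For a match at the partner, 500 bases (200 at the looser limit) had to have at most 20 alignments. Exon junctions had to be crossed by 20 bases on both sides. Methods were tested on simulated data with planted copies.

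The members and lists were chosen with earlier results of these data known. By rule, the text names the 12 largest places, the 5 pairs with the highest mean, the fragments with the most partners, the 5 places with the longest matches and the pairs nearest to the left-out positions. Some pairs of these places are not reported here. Other genes were named after their values were seen. Replicates are separate differentiations only as far as the labels call them biological. Alternatives were other score limits, each replicate left out, merged calls, unordered pairs, other windows and other match limits.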

Additional observations from a re-analysis of the deposited data

How the results depend on the processing

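Leaving out 1 replicate and asking for both others gave 378 to 411 pairs, 146 to 165 places, 16 to 22 near-identical pairs and 4 to 5 retrocopy pairs, against 243, 103, 13 and 3. The merged calls gave 455 pairs, 184 places, 23 near-identical pairs and 7 retrocopy pairs. Fewer replicates asked for let more pairs in by construction. Near-identical pairs numbered 5 with a window of 100 kb in place of 1 Mb and 28 at 90% over 200 bp. Held-out recurrence was 66.4% ± 4.22 at a score of at least 10. All other planned settings kept every count within 1.5 times. Alternatives chosen after seeing the data were to leave out the RNU1-51P fragment (205 pairs, 97 places, with PIRs near a long gap falling to 9.76% from 20.6% and small RNA promoter fragments to 15.1% from 28.4%), to leave out PIRs near a long gap or chromosome end (8 near-identical pairs), and to count high-copy sequence too (17). No paired analysis was possible because there is 1 group. The limits are those of a list cut at a score of 5 without read counts, of 1 cell line, and of a reference assembly that may lack copies.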
